A study of Mus musculus with 16 samples.

Results

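A set of 10 genes known as markers of intestinal stem cells was followed across single cells of the crypt-enriched proximal small intestine of mice at postnatal day 16, before weaning. The members were taken by name from the deposited matrices: Ascl2, Olfm4, Smoc2, Gkn3, Igfbp4, Cdca7, Mex3a, Tnfrsf19, Soat1 and Slc14a1, which are 10 of 24421 genes listed. Lgr5, the receptor that defines the stem cells of the crypt base, served as the reference. Outbred wild-type mice (WT) were compared with ROBO-Crainbow mice (ROBO), of the genotype ROBO(+/-):VilCre(+/-), which carry a Crainbow transgene in Rosa26 and the recombinase Cre under the Villin promoter. After recombination a ROBO epithelial cell expresses human RSPO3 or 1 of 2 PTPRK-RSPO3 fusions, each with its own fluorescent barcode. The Villin promoter acts in the intestinal epithelium, and which of the 3 products a cell carried was not analysed here. Mice of both genotypes were untreated. The matrices hold 1348 WT cells with 2682127 unique molecular identifiers (UMIs, 1 per captured molecule) and 1249 ROBO cells with 2428435 UMIs. The labels list 8 samples and 2 isolation cartridges per genotype. Cell names give the genotype and a running number only, so each genotype is 1 pooled sample, barcodes shared between libraries could not be counted, and no test between genotypes was possible. Every interval below is an exact 95% interval for counting error alone.

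Stem cells at the base of the crypt divide to replace themselves and to feed the transiently amplifying (TA) cells above them, which divide and then mature into absorptive enterocytes or secretory cells. Lgr5 binds R-spondins, secreted proteins that strengthen Wnt signalling, and RSPO3 is one of them. Ascl2 is a transcription factor of the Wnt-driven stem cell state. Smoc2, Igfbp4, Olfm4 and Gkn3 encode secreted proteins: a matricellular protein, a binding protein of insulin-like growth factors, a glycoprotein and a gastrokine. Tnfrsf19, also called Troy, is a receptor of the tumor necrosis factor receptor family. Cdca7 is a nuclear protein that works in chromatin, Mex3a binds RNA, Soat1 esterifies cholesterol and Slc14a1 transports urea.

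The libraries count transcript 3′ ends, and per the labels they were processed against the mouse build GRCm38. All members are protein-coding genes in the GENCODE M21 annotation of that build. Igfbp4 lies at chr11:99041244-99054392 on the plus strand, Ascl2 at chr7:142966829-142969264, Gkn3 at chr6:87383256-87388935 and Soat1 at chr1:156424525-156474331, these 3 on the minus strand. No annotated gene overlapped Ascl2, Gkn3, Igfbp4 or Cdca7. Olfm4 at chr14:79984081-80023139 is overlapped by Gm6999 on the same strand. Smoc2, Mex3a, Tnfrsf19 and Soat1 each contain 1 gene on the opposite strand, none within 500 bases of the member's annotated 3′ end. RefSeq promoter windows of 300 bases (GRCm38.p6, 250 before to 50 after a transcript start) were used for 8 members, with 9 windows. Smoc2 and Slc14a1 were not among these members. Gkn3 and Igfbp4 are shown because, of the 8 members used, they had the largest and smallest ratios between Lgr5-positive and Lgr5-negative cells described below. The inner Tnfrsf19 start is shown because it alone of the 9 windows held a searched motif. Capitals mark TCAAAG, the reverse complement of the TCF/LEF core CTTTGA, and the E-box CAGCTG, which do not overlap. Igfbp4 is from chr11:99040994-99041293 (plus), Gkn3 from chr6:87388886-87389185 (minus) and Tnfrsf19 from chr14:61037938-61038237 (minus), all read along the gene's own strand.
Igfbp4: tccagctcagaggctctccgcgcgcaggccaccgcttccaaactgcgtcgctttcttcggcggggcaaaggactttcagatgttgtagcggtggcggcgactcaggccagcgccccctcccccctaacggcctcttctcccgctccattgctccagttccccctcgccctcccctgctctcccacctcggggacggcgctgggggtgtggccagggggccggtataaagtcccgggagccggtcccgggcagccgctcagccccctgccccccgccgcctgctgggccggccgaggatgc
Gkn3: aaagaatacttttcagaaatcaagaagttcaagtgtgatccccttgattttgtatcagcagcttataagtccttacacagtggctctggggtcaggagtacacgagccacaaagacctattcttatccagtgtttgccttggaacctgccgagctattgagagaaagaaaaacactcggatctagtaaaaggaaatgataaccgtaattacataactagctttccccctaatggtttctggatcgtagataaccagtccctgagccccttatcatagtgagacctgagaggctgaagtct
Tnfrsf19: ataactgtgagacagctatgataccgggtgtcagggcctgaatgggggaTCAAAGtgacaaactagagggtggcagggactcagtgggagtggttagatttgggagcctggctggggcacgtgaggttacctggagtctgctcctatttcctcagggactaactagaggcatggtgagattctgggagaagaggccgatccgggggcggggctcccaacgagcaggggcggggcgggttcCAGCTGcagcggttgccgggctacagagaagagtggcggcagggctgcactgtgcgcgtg
The Igfbp4 window was 71.3% G and C with 27 CG pairs, the Gkn3 window 42.7% with 5, against a median of 52.7% over all windows. On both strands the TCF/LEF core was found in 16.0% of 32851 windows and the E-box in 16.3%, and of the 9 member windows 1 held each, the same one. A match is a run of letters and no evidence of binding, and its absence says nothing of sites elsewhere.

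Cells were grouped with the 10 members and Lgr5 left out of the genes used for clustering, so that no cluster was formed by them. None of the members was used to name a cluster. Lgr5 was among the markers that named stem cell-like clusters, so its rise in that class was partly set by the naming. Of 13 clusters, 2 were stem cell-like (539 cells) and 2 TA-like (764 cells) by fixed markers, and these 1303 cells are called crypt cells here. Enterocyte-like clusters held 974 absorptive cells, and 119 cells led by Myl7, Reg3b and Reg3g stayed unnamed. The immune-like cluster, led by Gzma and Ccl5, held 46 cells, and the 2551 other cells are called epithelial-like. Levels in immune-like cells served as a guide to what free RNA can produce, which was not measured. Whether immune-like cells express the members themselves was not tested. The classes differ in depth: the 2 stem cell-like clusters had medians of 816.5 and 2158.0 UMIs per cell, and the 2 TA-like clusters 3061.5 and 912.5. Levels are therefore UMIs of a gene per 10000 UMIs summed over the cells of a group. The deeper stem cell-like cluster also held 9 cells, 5 WT and 4 ROBO, with at least 10 UMIs of fibroblast markers; they held all 1055 fibroblast marker UMIs of the stem cell-like class, from 9 of the 10 markers, at 7.42 per 10000 in WT and 19.9 in ROBO against 0.0319 in absorptive cells.

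Igfbp4 was the most counted member, and Olfm4, Mex3a and Tnfrsf19 were scarce. Igfbp4 gave 1043 UMIs over all cells, Cdca7 664, Smoc2 564, Ascl2 369, Gkn3 190, Soat1 187 and Slc14a1 102, beside 327 for Lgr5. Mex3a gave 64 UMIs, Olfm4 58 and Tnfrsf19 47. Since a 3′ library gives 1 UMI per molecule whatever the transcript's length, genes can be ranked by UMIs: Igfbp4 ranked 855 of 15123 genes with a UMI, Lgr5 3317 and Olfm4 8723. Olfm4 was found in 21 of 1348 WT cells and 32 of 1249 ROBO cells, and no cell had more than 2 of its UMIs. Its level was 0.0858 per 10000 in WT (0.0544 to 0.129) and 0.144 in ROBO (0.1004 to 0.2004).

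**Figure D1:**
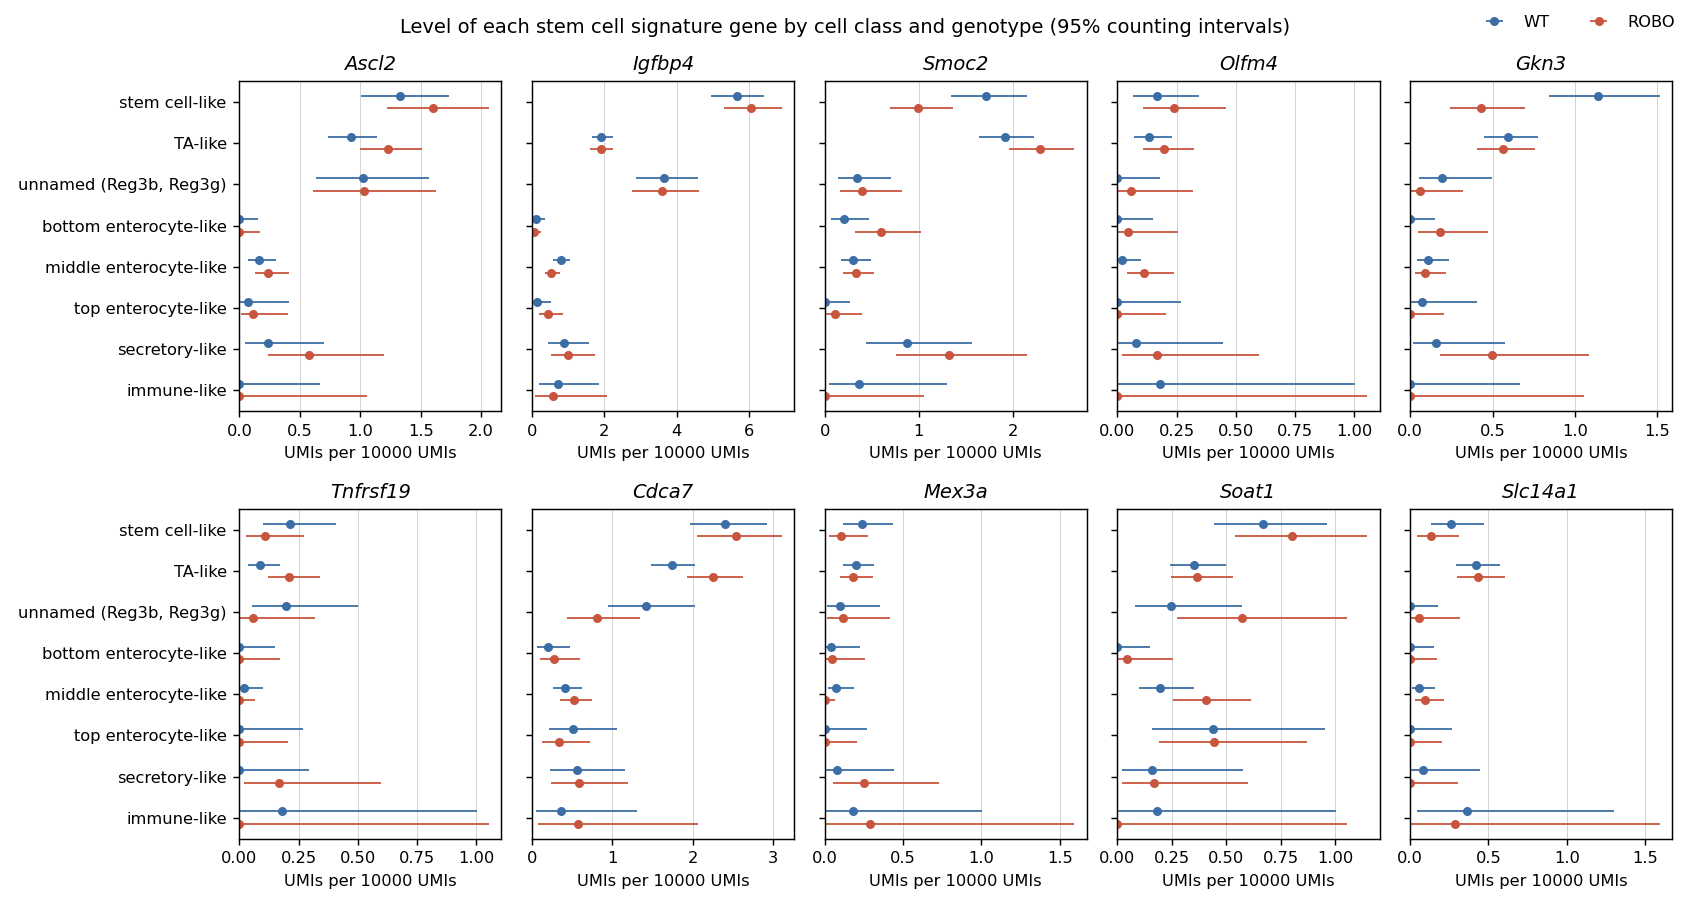
Level of each member in UMIs per 10000 UMIs (horizontal axis, its own scale in each panel) by cell class (vertical axis), for WT (blue) and ROBO (red), with exact 95% Poisson intervals. Igfbp4 reaches 5.66 in WT and 6.07 in ROBO stem cell-like cells, Smoc2 is as high or higher in TA-like cells, and Soat1 is near 0.44 in top enterocyte-like cells of both genotypes.

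The first question was which members were concentrated in Lgr5-positive cells. Cells with at least 1 Lgr5 UMI numbered 226 of the 2551 epithelial-like cells, 119 WT and 107 ROBO, with a median of 1984.5 UMIs against 1502.0 in the 2325 others. Of the 10 members, 9 were at least 2-fold higher in Lgr5-positive cells with an interval that left out 1, which 4.86% of 10463 genes with at least 20 UMIs were. The members' median log2 ratio was 1.60, beside 0.10 for all genes.

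Gkn3, Slc14a1 and Tnfrsf19 stood highest. Gkn3 was at 1.36 per 10000 in Lgr5-positive and 0.257 in Lgr5-negative cells, a ratio of 5.27 (3.89 to 7.11). By genotype Gkn3 was at 1.79 and 0.262 in WT and at 0.834 and 0.252 in ROBO. The intervals of the 2 pools overlapped outside Lgr5-positive cells and not inside them. Slc14a1 had 41 UMIs in Lgr5-positive and 58 in Lgr5-negative cells, a ratio of 5.71 (3.73 to 8.67). Tnfrsf19 had 18 and 28, a ratio of 5.20 (2.71 to 9.73). Olfm4, with 18 and 39 UMIs, was 3.73-fold higher (2.01 to 6.68).

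Smoc2 and Cdca7 followed at 3.27-fold (2.71 to 3.94) and 2.83-fold (2.36 to 3.37). Mex3a was 2.58-fold (1.34 to 4.69), Soat1 2.29-fold (1.57 to 3.25) and Ascl2 2.24-fold higher (1.72 to 2.88). Igfbp4, at 3.67 against 1.87 per 10000, was 1.97-fold higher (1.68 to 2.30) and did not reach the 2-fold limit. Neighbours in this order had overlapping intervals, while the intervals of Gkn3 and Slc14a1 lay wholly above those of Ascl2 and Igfbp4. No member was restricted to cells in which Lgr5 was seen. The share of cells with a member's UMI that also had an Lgr5 UMI ran from 17.6% of 574 for Igfbp4 (14.6 to 20.96) to 37.7% of 69 for Slc14a1 (26.3 to 50.2), and was 20.9% of 268 for Ascl2 and 31.5% of 127 for Gkn3.

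Part of that contrast is one of crypt against villus, since 187 of the 226 Lgr5-positive cells were crypt cells. Within crypt cells alone, 5 members passed the same limits, with a background of 2.40%. These were Slc14a1 at 4.00-fold (2.56 to 6.23), Gkn3 at 3.54-fold (2.56 to 4.89), Tnfrsf19 at 3.42-fold (1.67 to 6.88), Olfm4 at 2.94-fold (1.495 to 5.62) and Smoc2 at 2.18-fold (1.78 to 2.66). Mex3a (1.96), Cdca7 (1.95), Soat1 (1.89), Ascl2 (1.62) and Igfbp4 (1.36, 1.15 to 1.61) were below 2-fold there. Within the stem cell-like class alone 2 of the 6 members with at least 20 UMIs passed (background 2.91%), Gkn3 at 3.86-fold (2.29 to 6.52) and Smoc2 at 2.75-fold (1.84 to 4.08). Igfbp4 was at 1.02 (0.810 to 1.27) and Ascl2 at 0.946 (0.577 to 1.496) there, and Slc14a1 had 11 and 5 UMIs. After each cell was thinned to 912 UMIs, 6 of the 7 members with at least 20 UMIs passed in epithelial-like cells (background 4.88%). Slc14a1, with 5 and 31 UMIs, was the member that did not (2.80-fold, 0.851 to 7.27), and Igfbp4 passed at 2.07-fold (1.45 to 2.90).

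**Figure D2:**
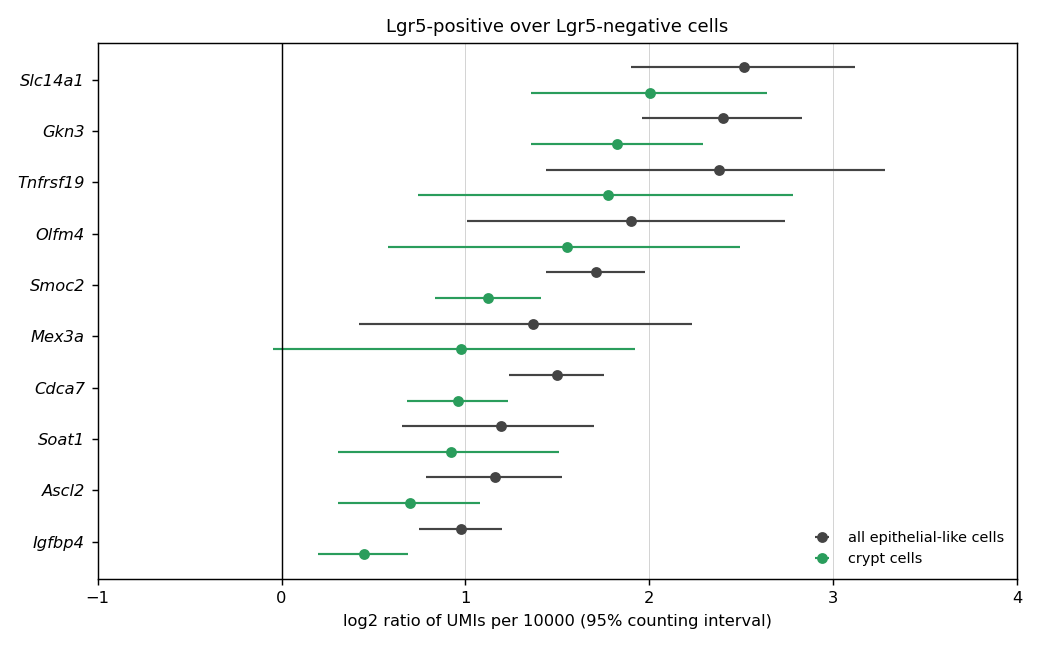
Log2 ratio of each member's level in Lgr5-positive over Lgr5-negative cells (horizontal axis) over all epithelial-like cells (grey) and within crypt cells (green), with exact 95% counting intervals. Slc14a1 and Gkn3 lie farthest to the right and Igfbp4 farthest to the left, and each member's ratio is smaller within crypt cells.

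Cells with more Lgr5 also had more Smoc2 and Slc14a1. Smoc2 was at 0.895 per 10000 in the 2325 cells with no Lgr5 UMI, 2.40 in the 158 with 1 and 4.04 (3.16 to 5.09) in the 68 with at least 2. Slc14a1 was at 0.130, 0.427 and 1.40 (0.908 to 2.07). Ascl2 was at 0.647, 1.55 and 1.23 (0.774 to 1.87) and Igfbp4 at 1.87, 3.68 and 3.65, so neither was higher in cells with at least 2 Lgr5 UMIs than in cells with 1. A single cell held few of the signature genes. Of the Lgr5-positive cells, 38 had no UMI of any member and 2 had UMIs of 7. At 912 UMIs per cell the mean number of members with a UMI was 1.16 in 198 Lgr5-positive cells, 0.682 in 748 Lgr5-negative crypt cells, 0.164 in 770 absorptive cells and 0.250 in 36 immune-like cells. The thinned comparison left out 28, 368, 204 and 10 shallower cells. Among 913 thinned crypt cells, 26 held both an Lgr5 and a Smoc2 UMI where the product of the 2 shares gives 11.7, and 22 held Lgr5 with Igfbp4 where it gives 19.9. Lgr5-negative at this depth means that no Lgr5 molecule was captured.

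**Figure D3:**
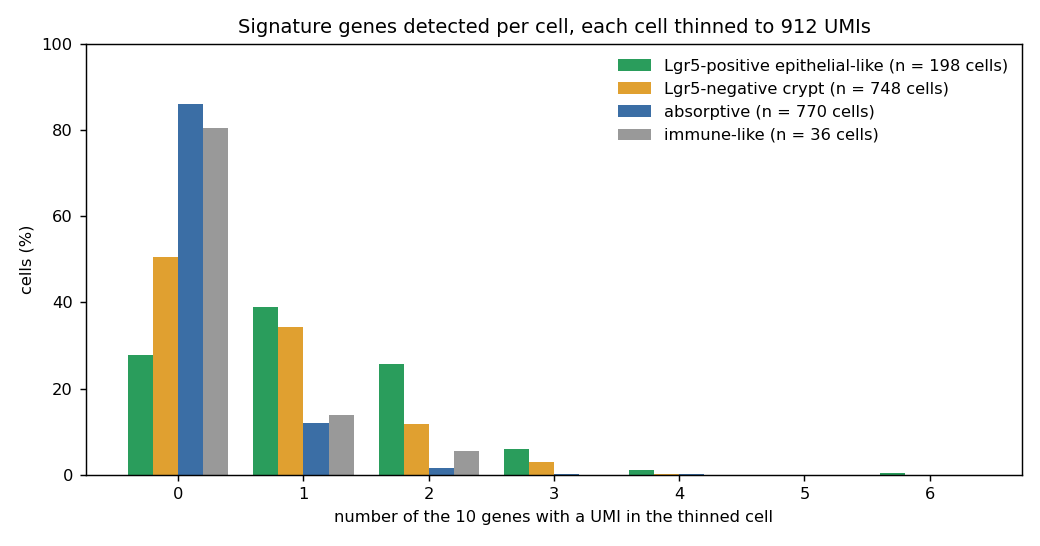
Share of cells (vertical axis, percent) by the number of the 10 members with a UMI (horizontal axis) after thinning to 912 UMIs, in Lgr5-positive epithelial-like, Lgr5-negative crypt, absorptive and immune-like cells. No member was seen in 27.8% of Lgr5-positive, 50.5% of Lgr5-negative crypt and 86.0% of absorptive cells.

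The second question was how far the genes reached into absorptive cells. All 10 members were at least 2-fold higher in stem cell-like than in absorptive cells with an interval that left out 1 (background 19.4%, over 9304 genes with at least 20 UMIs, of which Tnfrsf19 with 14 UMIs was not one). Igfbp4 was at 5.85 and 0.463 per 10000, a ratio of 12.6 (10.04 to 16.1). Ascl2 was 11.0-fold (7.08 to 17.7), Gkn3 9.47-fold (5.41 to 17.5), Cdca7 6.19-fold (4.72 to 8.18) and Smoc2 4.69-fold higher (3.36 to 6.61). Tnfrsf19 had 13 UMIs in stem cell-like and 1 in absorptive cells. Without the 9 cells with fibroblast markers all 10 ratios stayed past both limits, that of Tnfrsf19 again on fewer than 20 UMIs.

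Soat1 had the smallest ratio, 2.86 (1.92 to 4.28). Over all crypt cells Soat1 was 1.87-fold higher (1.33 to 2.68), below the limit that the 9 other members passed (background 22.6%), and in TA-like cells it was at 0.358 against 0.255, a ratio of 1.40 (0.944 to 2.10) with a background of 21.2%. Absorptive cells held 25.8% of epithelial-like Soat1 UMIs, and 2.17% to 14.0% of those of the other members. Within the absorptive cells Soat1 had 1 UMI in bottom, 33 in middle and 14 in top enterocyte-like cells, which are levels of 0.0217, 0.300 and 0.440 per 10000. In top enterocyte-like cells Soat1 was at 0.438 (0.161 to 0.954) in WT and 0.442 (0.191 to 0.871) in ROBO, beside 0.511 and 0.331 for Cdca7, and over both pools the bottom and top levels had intervals that did not overlap (0.000548 to 0.121 and 0.241 to 0.739). Immune-like cells had 1 Soat1 UMI, a level of 0.111 (0.00280 to 0.616). Ascl2 was listed at 0 in bottom enterocyte-like cells, where a count of 0 allows up to 0.0650 per 10000.

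Immune-like cells are too few to tell a member's level in absorptive cells, that of Soat1 included, from what free RNA can give. The 10 members summed to 1.75 per 10000 in absorptive cells and to 2.21 (1.35 to 3.42) in the 46 immune-like cells, against 10.4 in crypt cells. Igfbp4 was at 0.463 in absorptive and 0.663 in immune-like cells (6 UMIs), and Cdca7 at 0.399 and 0.442 (4 UMIs). The absorptive level of Igfbp4 was uneven. It was 0.924 (0.684 to 1.22, 49 UMIs) in middle enterocyte-like cells led by Cubn and 0.775 in those led by Atf3 and Fosb. Top enterocyte-like cells had 0.315, bottom ones 0.0866 (0.0236 to 0.222, 4 UMIs), and middle ones led by Sis gave 3 UMIs. The Igfbp4 interval in immune-like cells, 0.243 to 1.44, held 0.924 and lay above that of bottom enterocyte-like cells. Gkn3 and Ascl2 gave no UMI in immune-like cells, where 0 allows 0.332. At 912 UMIs per cell 1.04% of absorptive cells had a Gkn3 UMI and 1.04% an Ascl2 UMI, with 0 of 36 immune-like cells for both (up to 8.33%). The 15 absorptive cells with an Lgr5 UMI had no UMI of Ascl2, Gkn3 or Olfm4. By cluster, summed members were higher in the middle enterocyte-like cells led by Atf3 and Fosb (3.43) than in those led by Sis (1.30), and leaving out the first did not change the count of members above.

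Other cells carried some of the members. In the unnamed Reg3b and Reg3g cells Igfbp4 was at 3.64 per 10000, 7.86-fold above absorptive cells (5.96 to 10.4), Ascl2 7.73-fold (4.56 to 13.3) and Cdca7 2.84-fold (1.90 to 4.19). These were 3 of 6 members with at least 20 UMIs that passed, with a background of 11.1%. Counted at any number of UMIs 4 members passed, the added one being Tnfrsf19 with 5 UMIs there and 1 in absorptive cells. Gkn3 (5 UMIs), Smoc2 (14), Olfm4 (1), Slc14a1 (1) and Lgr5 (7) had intervals of the ratio that held 1 or rested on a single UMI there. Set against this cluster, stem cell-like cells were higher in Gkn3 (6.12-fold, 2.49 to 19.5), Smoc2 (3.72-fold, 2.13 to 7.03) and Cdca7 (2.18-fold, 1.56 to 3.11), with a background of 5.66%, while Ascl2 (1.42-fold, 0.981 to 2.10) and Igfbp4 (1.61-fold, 1.33 to 1.96) were below 2-fold. Lgr5, which helped to name the stem cell-like class, was 8.40-fold higher (3.96 to 21.3) in it than in this cluster. In secretory-like cells the order was another: Lgr5 was 9.89-fold above absorptive cells (5.01 to 19.8), Gkn3 3.82-fold (1.42 to 9.46), Smoc2 3.75-fold (2.28 to 6.05), Ascl2 3.06-fold (1.31 to 6.59) and Igfbp4 2.02-fold (1.22 to 3.23), with a background of 11.1%, and Cdca7 was 1.43-fold (0.744 to 2.54). Secretory-like cells had an Lgr5 UMI in 15 of 125 cells.

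The third question was whether the genes set stem cells apart from dividing cells. Of the members Igfbp4 and Soat1 were at least 2-fold higher in stem cell-like than in TA-like cells (background 3.26%), and Slc14a1 was lower (background 4.64%). Igfbp4 was at 5.85 against 1.92 per 10000, a ratio of 3.05 (2.64 to 3.53). Of its 465 stem cell-like UMIs 57 lay in the 9 cells with fibroblast markers, and without these cells the log2 ratio was 1.45 in place of 1.61. Soat1 was at 0.730 against 0.358, a ratio of 2.04 (1.40 to 2.97). Lgr5, itself a naming marker of the stem cell-like class, was at 1.55 and 0.896, a ratio of 1.73 (1.35 to 2.21). Lgr5-positive cells numbered 86 in the stem cell-like and 101 in the TA-like class. They made up 27.6% of the deep and 8.07% of the shallow stem cell-like cluster. In the TA-like class they made up 16.7% of the deep and 9.51% of the shallow cluster. Slc14a1 went the other way, with 16 UMIs in stem cell-like and 71 in TA-like cells and a ratio of 0.475 (0.258 to 0.825). Smoc2 also leaned to TA-like cells, at 1.37 against 2.09, a ratio of 0.656 (0.524 to 0.816). Ascl2 (1.37), Gkn3 (1.39), Cdca7 (1.25), Olfm4 (1.25), Tnfrsf19 (1.14) and Mex3a (0.922) lay between. In the deep stem cell-like cluster over the deep TA-like cluster the same 3 passed (background 4.38% higher, 6.02% lower): Igfbp4 at 4.65-fold (3.86 to 5.62), Soat1 at 2.48-fold (1.59 to 3.86) and Slc14a1 at 0.450 (0.214 to 0.859). All 9 cells with fibroblast markers lay in this deep stem cell-like cluster, with 57 of its 315 Igfbp4 UMIs. The ratio of 4.65 includes these cells. When phase scores were not regressed out before clustering no member passed, with Igfbp4 at 0.94, Soat1 at 0.23 and Slc14a1 at -0.11 on the log2 scale.

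Mitosis genes gave a split of the crypt cells that does not use which of the 2 classes a cell was in. The crypt cells themselves were chosen by cluster, and many of the mitosis genes also served to name TA-like clusters. Of 913 crypt cells with at least 912 UMIs, 460 had 2 or more UMIs of 24 mitosis genes after thinning and 453 had fewer. Igfbp4 was at 4.49 per 10000 in the non-mitotic and 2.00 in the mitotic cells, a ratio of 2.24 (1.91 to 2.63, background 2.74%). Cells with fibroblast markers were not taken out for this ratio. Slc14a1 was at 0.221 and 0.525, a ratio of 0.421 (0.247 to 0.694, background 3.63%). With at least 4 UMIs as the limit for mitotic cells neither passed, at 0.94 and -0.40 on the log2 scale. Gkn3 (0.831), Smoc2 (0.830), Olfm4 (1.09), Soat1 (1.10), Ascl2 (1.36) and Cdca7 (1.38) differed by less than 2-fold, and Mex3a (0.624) and Tnfrsf19 (1.07) rested on 44 and 34 UMIs. Among Lgr5-positive cells Gkn3 was at 1.59 in both the 79 mitotic and the 86 non-mitotic cells. Igfbp4 was at 2.95 (2.28 to 3.77) in the mitotic and 5.02 (4.11 to 6.06) in the non-mitotic ones, and Slc14a1 at 1.27 (0.846 to 1.84) and 0.609 (0.324 to 1.04).

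**Figure D4:**
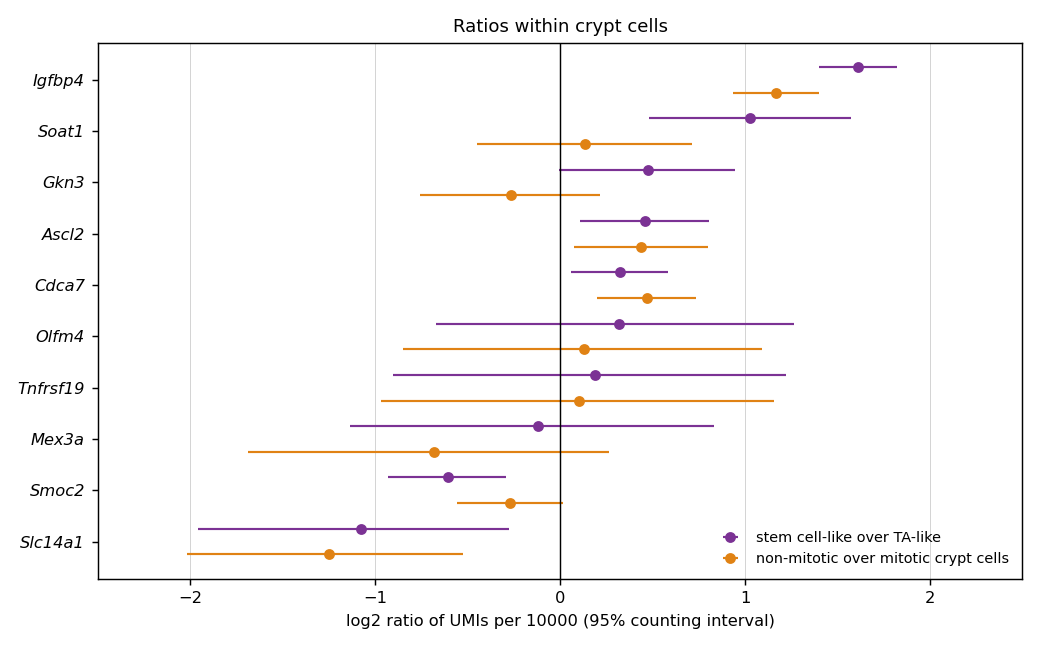
Log2 ratio of each member's level (horizontal axis) in stem cell-like over TA-like cells (purple) and in non-mitotic over mitotic crypt cells (orange), with exact 95% counting intervals. Igfbp4 is to the right and Slc14a1 to the left of 0 in both.

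Likeness over the 24 sums of cluster and genotype set the members apart, as a description over points that share libraries and depth. By Pearson's r of log levels among 9071 genes, the nearest gene to Igfbp4 was Rnf43 (0.94), and Igfbp4 and Ascl2 were near each other (0.90). Smoc2 was nearest to Gpx2 (0.90) and Aqp4 (0.90). Slc14a1 was nearest to Ezh2 (0.77) and Ccne2 (0.75). With Lgr5 itself r was highest for Smoc2 (0.71) and Olfm4 (0.70) and lowest for Soat1 (0.34), with Tnfrsf19 too scarce to be compared.

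A list of 27 other stem cell genes was read beside the members. It holds every marker that named stem cell-like clusters except Lgr5, and these were not left out of the clustering. Their rise in stem cell-like cells was thus partly set by the naming, so the list is no independent reading in that class. In Lgr5-positive over Lgr5-negative crypt cells 7 of the 26 with at least 20 UMIs passed, among them Aqp4 at 3.14-fold (2.28 to 4.31) and Sfrp5 at 3.39-fold (2.42 to 4.74), and the list's median log2 ratio was 0.55 beside 1.05 for the members. In stem cell-like over absorptive cells 21 of 24 passed, with a median of 2.17 beside 2.47. In stem cell-like over TA-like cells 4 of 26 were higher and 2 lower. Of the 26, 20 had a log2 ratio above 0, and the median was 0.42 beside 0.32 for the members. Sfrp5, a secreted Wnt antagonist, was 1 of the 2 lower ones (0.438, 0.276 to 0.673).

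The last comparison was of the 2 genotypes in stem cell-like cells, 251 ROBO and 288 WT. Of the 6 members with at least 20 UMIs 2 were at least 1.5-fold lower in ROBO and 0 higher, where 11.6% of 6765 genes were lower and 8.48% higher by the same fold. With an interval that also left out 1 these same 2, Gkn3 and Smoc2, passed (background 3.12% lower, 2.42% higher). Gkn3 had 48 UMIs in WT and 16 in ROBO, levels of 1.14 and 0.428 per 10000, so that ROBO was lower by a log2 ratio of -1.42 (-2.33 to -0.58). The UMIs lay in 30 of 288 WT cells (10.4%, 7.14 to 14.5) and 13 of 251 ROBO cells (5.18%, 2.79 to 8.69), with at most 6 in a WT cell. Without the 5 cells of each genotype with most Gkn3 the log2 ratio was -1.69 (-3.03 to -0.53), and with 30 principal components in the clustering it was -0.69 and did not pass.

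Among Lgr5-positive cells the WT pool gave 54 Gkn3 UMIs and the ROBO pool 21 (log2 ratio -1.11, -1.91 to -0.35). Gkn3 and Slc14a1 were lower there by fold (background 12.6%), and Gkn3 alone by fold and interval (background 3.41%). The shares of these cells with a Gkn3 UMI, 20.2% (13.4 to 28.5) in WT and 14.95% (8.80 to 23.1) in ROBO, had overlapping intervals. An Igfbp4 UMI was found in 53.8% of WT (44.41 to 63.0) and 34.6% of ROBO cells (25.6 to 44.39). The Igfbp4 log2 ratio was -0.27 (-0.70 to 0.14), with up to 14 UMIs in 1 ROBO cell and 6 in a WT cell. That ROBO cell was 1 of the 9 with fibroblast markers, with 150 UMIs of them, and the ratio without it is not given here. Gkn3 in TA-like cells stood at 0.593 for the WT pool and 0.563 for the ROBO pool (-0.07, -0.69 to 0.53). In all crypt cells the Gkn3 log2 ratio was -0.56 (-1.05 to -0.09), or -0.47 (-1.04 to 0.085) without the 5 highest cells of each genotype. Of Smoc2, stem cell-like cells gave 72 UMIs in the WT and 37 in the ROBO pool (log2 ratio -0.79, -1.41 to -0.20). In TA-like cells Smoc2 had 175 UMIs in each genotype (0.25, -0.06 to 0.56), and over all crypt cells the log2 ratio was 0.01 (-0.27 to 0.28). Smoc2 UMIs were thus divided differently between the 2 classes and not different in sum, and clustering without regression of phase gave 0.01 in stem cell-like cells. Olfm4, Mex3a, Tnfrsf19 and Slc14a1 had 13 to 16 UMIs each and intervals that held 0. Ascl2 (0.27), Igfbp4 (0.10), Cdca7 (0.08) and Soat1 (0.27) had intervals that held 0 in stem cell-like cells. Fibroblast markers, at 7.42 in WT and 19.9 in ROBO stem cell-like cells, moved with genotype; without the 9 cells that carried them Gkn3 was at -1.40 and Smoc2 at -0.85. Over all crypt cells and over all cells no member passed both limits, with backgrounds of 2.25% and 2.40% lower and 2.82% and 2.09% higher. By fold alone Tnfrsf19 was higher in TA-like cells (2.39-fold, 0.963 to 6.44, background 9.99%) and Olfm4 over all cells (1.68-fold, 0.965 to 2.98, background 4.60%). Library and genotype cannot be told apart in these values.

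**Figure D5:**
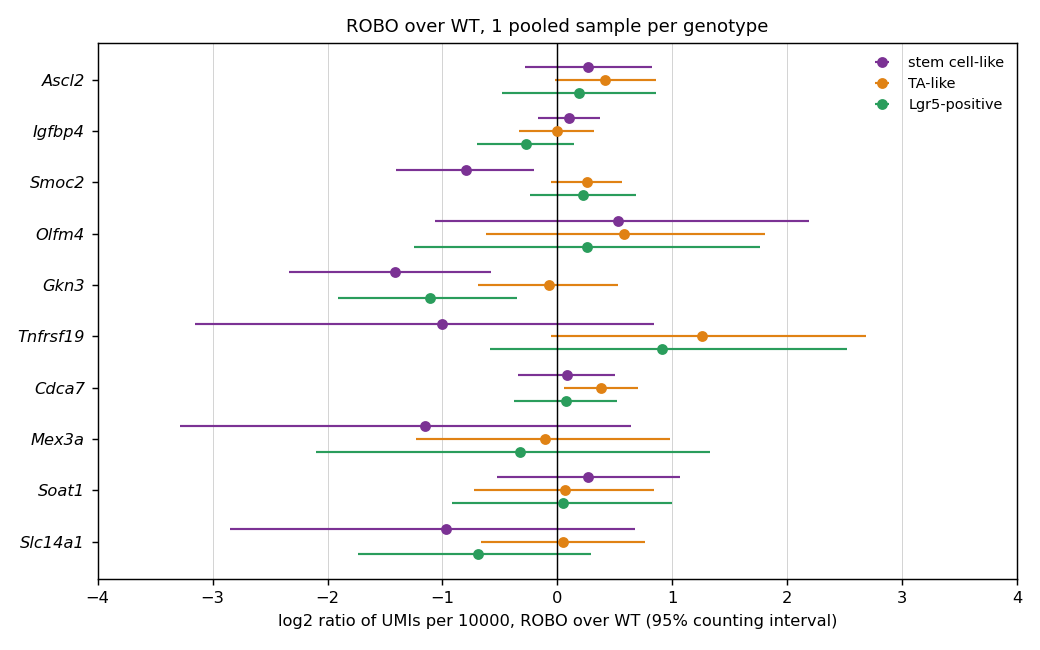
Log2 ratio of each member's level in ROBO over WT (horizontal axis) in stem cell-like, TA-like and Lgr5-positive cells, 1 pooled sample per genotype, with exact 95% counting intervals. Gkn3 lies below 0 in stem cell-like and Lgr5-positive cells and near 0 in TA-like cells, and Smoc2 below 0 in stem cell-like cells only.

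No adult library was analysed, so a difference between pre-weaning and adult crypts was not measured. In adult mouse small intestine Olfm4 is known as one of the most abundant and specific stem cell transcripts. Here Olfm4 was detected in 15 of 226 Lgr5-positive cells (6.64%), where Smoc2 was detected in 100 (44.2%), Ascl2 in 56 (24.8%) and Gkn3 in 40 (17.7%). Per 10000 UMIs of those cells Olfm4 stood at 0.299 (0.137 to 0.568) for the WT and 0.357 (0.163 to 0.679) for the ROBO pool, and so it was low in both pools while 3.73-fold above Lgr5-negative cells.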

How the data were processed

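Single cells of crypt isolates were captured by droplet (Bio-Rad ddSEQ, SureCell 3′ kit). Reads were preprocessed in BaseSpace, and the authors deposited a matrix of unnormalized UMI counts for each genotype. The aligner and annotation are not given in the sources used here, and the submitters' processing notes list the builds mm10 and GRCm38. Names beginning with a digit carry an X in the matrices.

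Cells were clustered in Seurat 5.3.0 (R 4.3.3), with S and G2M scores regressed out, 2000 variable genes without the members and Lgr5, 20 principal components and a resolution of 0.8. A class name needed at least 3 markers raised 1.5-fold, with 0.1 added, and seen in 10% of cells. Scrublet (scanpy 1.11.5) called 6 doublets, which were kept. UMIs were summed per group. Poisson, conditional ratio and Clopper-Pearson intervals were exact (scipy 1.17.1), cover counting error only, and were checked on simulated data. A count of 0 was given the limit of 3 counts. A gene passed at 2-fold between cell groups, or 1.5-fold between genotypes, with an interval without 1 and at least 20 UMIs in the cells compared. The median cell held 1492 UMIs (WT) or 1610 (ROBO). For shares, cells were thinned to 912 UMIs, which left out 364 WT and 285 ROBO cells. The genes named are the members, Lgr5, their nearest genes by correlation, genes of the 27-gene list picked after their values were seen, and leading genes of clusters. Members and lists were chosen with earlier results of these data known. Alternatives varied clustering, depth, weights, Lgr5 and mitosis limits, genotype and scaling.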

Additional observations from a re-analysis of the deposited data

How the results depend on the processing

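Over 60 recomputed counts of members that passed, 43 stayed within 1.5 times the reported count and 17 did not. Of 599 ratios of single members 518 stayed inside the counting interval of the reported value, 77 did not, and 4 that had passed changed sign. In all, 36 of them had the other sign than reported, the rest among ratios that had not passed. These counts do not ask for 20 UMIs, and Tnfrsf19 in ROBO cells alone had no UMI in absorptive cells and so no ratio. Of the 9 members higher in Lgr5-positive epithelial-like cells, 3 passed within stem cell-like cells only and 5 within crypt cells only, an alternative added after seeing the data. Within stem cell-like cells the log2 ratios of Ascl2 and Mex3a were -0.080 and -0.73. The count of 10 in stem cell-like over absorptive cells stayed within 1.5 times in every alternative run.

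Of the 2 members higher in stem cell-like than TA-like cells, 1 (Igfbp4) passed with each cell given the same weight (by fold alone), in WT cells alone, with the members and Lgr5 kept in the clustering, with all stem cell list genes left out of it, with 10 principal components and with called doublets removed, and 0 without regression of phase scores. Of the 2 that differed between non-mitotic and mitotic crypt cells, 1 (Igfbp4) passed in ROBO cells alone and 0 when mitotic meant at least 4 UMIs. The count of 2 that differed between genotypes in stem cell-like cells became 1 (Gkn3) with the members kept in the clustering, without regression, with 10 principal components and with at least 500 genes per cell, 1 (Slc14a1, at -2.36) with 30 principal components, and 0 in stem cell-like and TA-like cells pooled, also added. Gkn3 was between -1.46 and -0.56 on the log2 scale in all of these. Smoc2 was 0.0098 without regression and 0.0061 in the pooled classes. Except where the alternative compares fewer cells or UMIs by its own construction, the cause was not tested.

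Other alternatives added after seeing the data left out the cells with fibroblast markers, the Atf3 and Fosb cluster or the TA-like cluster led by Rn45s, or set the deep stem cell-like cluster against the deep TA-like one, and each kept its count within 1.5 times. No paired analysis was possible because the cell names carry no library or replicate number, and for the same reason no replicate could be left out. Depth limits Olfm4, Mex3a and Tnfrsf19 most, with 47 to 64 UMIs each.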
